A study of Mus musculus with 14 samples.

Results

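The genes described here are 8 that mark and serve regulatory T cells: Foxp3, Il2ra, Ikzf2, Ikzf4, Nrp1, Lrrc32, Itgb8 and Gpr83. They were picked by name, with earlier results of these data known, and are 8 of 49235 annotated genes that had a value in at least 1 sample. RNA-Seq was done on activated CD4+ T cells of C57BL/6 mice in 2 experiments with 14 samples in all. In the first, 4 HDAC1cKO-HDAC2HET samples, with Hdac1 f/f and Hdac2 f/+ alleles and Cd4-Cre, were set against 4 WT samples, all harvested after culture for 3 days. In the second, 3 HDAC1cKO samples, with Hdac1 f/f alleles and Cd4-Cre, were set against 3 WT samples. There anti-CD3 was given anew for 12 hours after culture for 3 days. All groups were activated through CD3 and CD28. In the first experiment the cultures started from naive CD4+ T cells of mice aged 6 to 12 weeks, sorted without CD25+ cells, with IL-2 added. The methods of the second experiment were described elsewhere, so its sort, mouse age and use of IL-2 are not stated here. Cd4-Cre is active in developing T cells of both CD4 and CD8 lineages, so the deletion preceded the culture. Nothing in the labels ties a sample to a single mouse, and p-values measure the spread between these samples.

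Regulatory T cells restrain immune responses and depend on the transcription factor FOXP3, on IL-2 taken up through a receptor that contains CD25 (Il2ra), and on TGF-beta that they hold and activate at their surface. Helios (Ikzf2) and Eos (Ikzf4), both of the Ikaros family, work beside FOXP3, while neuropilin-1 (Nrp1) and the receptor GPR83 mark the lineage in mice. Conventional CD4+ T cells also express several of these genes once activated, CD25 above all. In the first experiment, where the sort left out CD25+ cells, the levels below describe cultures started without cells that bore CD25. In either experiment, fewer cells with a transcript and less transcript per cell cannot be told apart.

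Hdac1 fell from 78.1 to 8.30 FPKM in HDAC1cKO-HDAC2HET samples and from 75.6 to 10.1 FPKM in HDAC1cKO samples, so the libraries matched their labels. FPKM is the number of fragments divided by transcript length and by the number of mapped fragments. Hdac2 fell from 59.0 to 35.4 FPKM in HDAC1cKO-HDAC2HET cells, whereas its means were 72.4 FPKM in WT and 80.4 FPKM in HDAC1cKO cells of the second experiment (adjusted p = 0.582). Depth, estimated from the confidence bounds of low values, was 24900000 to 58900000 fragments per sample. Xist, which is transcribed in female cells, was above 1 FPKM in all 8 samples of the first experiment, in 2 of 3 WT samples of the second and in 0 of 3 HDAC1cKO samples, so sex and genotype cannot be fully told apart there. The 6 CD4 T cell markers summed to between 1180 and 1302 FPKM in WT and 897 to 956 FPKM in HDAC1cKO-HDAC2HET samples, and all 6 fell by between 0.18 and 0.65 on the log2 scale. Of all genes tested in that comparison, 51.8% passed an adjusted p of 0.05, and 27.6% passed with a lower level. The 2 CD8 T cell markers, which both rose, summed to 3.28 to 5.96 FPKM in WT and 11.7 to 15.2 FPKM in HDAC1cKO-HDAC2HET samples. The 5 B cell markers summed to 0.502 to 0.945 FPKM and 2.79 to 4.40 FPKM, and of the 2 that could be tested Cd79b rose. The 6 of 7 myeloid and dendritic cell markers with a value in every sample summed to at most 0.378 FPKM in that experiment, with Csf1r listed at 0, and 2 of 3 NK cell markers to at most 0.0155 FPKM. In the second experiment the CD4 T cell sums overlapped, and CD8 T cell sums were 3.80 to 4.86 FPKM in WT and 6.52 to 7.30 FPKM in HDAC1cKO samples. Which cells these marker transcripts came from, and what part they had in the results below, was not tested.

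After 3 days, 5 of the 7 regulatory T cell genes that could be tested fell in HDAC1cKO-HDAC2HET cells (Nrp1, Ikzf2, Gpr83, Ikzf4 and Il2ra), 0 rose, and Lrrc32 and Itgb8 did not pass an adjusted p of 0.05. Nrp1, Ikzf2 and Gpr83 fell at least 2-fold. In this comparison 51.8% of all 15170 genes tested passed the same threshold. As shares of all genes tested, 27.6% passed with a lower level and 5.56% passed at least 2-fold lower. The median log2 fold change was -0.64 over the 7 genes and -0.05 over all genes tested. In the second experiment 0 of the 7 genes passed, in a comparison where 0.0921% of 14113 genes did so. Lower genes were 0.0638% of those tested, both with and without a 2-fold limit. By limma, 4 of the 7 had an unadjusted p under 0.05, all lower in HDAC1cKO cells, against 14.2% of all genes tested in either direction. Exact permutation tests with 3 against 3 samples cannot go below p = 0.1, the value given by groups that do not overlap. The share of all genes tested whose groups did not overlap was not determined in either experiment. In a fit that shared 1 estimate of the spread over all 14 samples, 3 of the 7 passed, namely Il2ra, Ikzf2 and Nrp1, as did 10.4% of 13343 genes. The median log2 fold change of the 7 genes was -0.91, the value of Itgb8, against -0.03 over all genes tested. It was -0.59 without WT replicate 1, which set the level of Itgb8, and -0.48 with a pseudocount of 1.

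**Figure D1:**
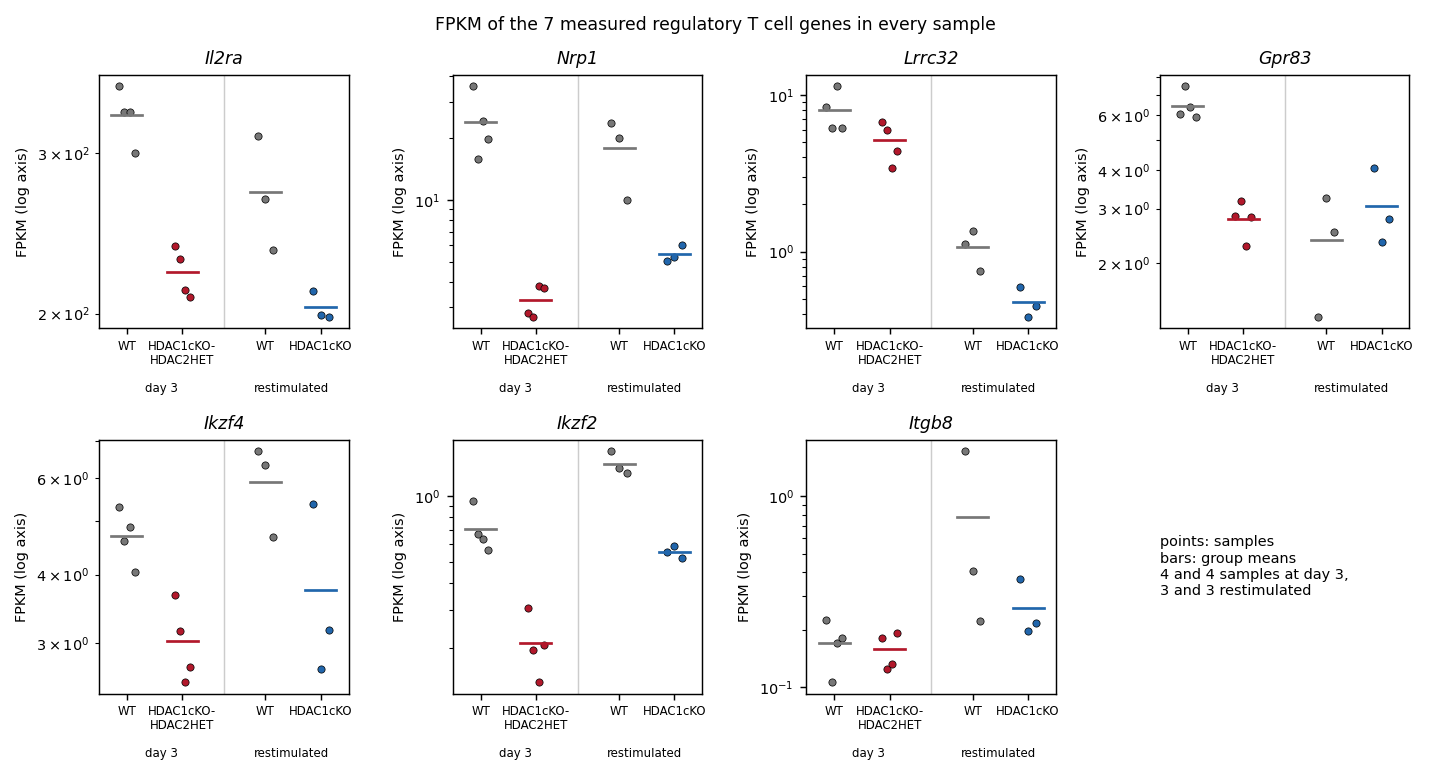
FPKM of each measured regulatory T cell gene on a log axis, with a point for each sample and a bar at the group mean, for WT and HDAC1cKO-HDAC2HET at day 3 (4 and 4 samples) and WT and HDAC1cKO after restimulation (3 and 3 samples). Il2ra, Nrp1, Gpr83, Ikzf4 and Ikzf2 show no overlap at day 3, and Il2ra, Nrp1, Lrrc32 and Ikzf2 show none after restimulation. The share of all genes tested that show no overlap was not determined.

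Foxp3 encodes the factor that defines regulatory T cells and lies on the X chromosome at chrX:7573644-7595245 of mm10 on the plus strand. It had no named entry in any of the 14 files. The assembled locus over it was listed at 1.48 FPKM in WT replicate 1 of the first experiment and at 0 in the other 13 samples. A 0 for such a locus can be a failed estimate, so no level or fold change is given for Foxp3 and it was not tested. A wider unnamed locus, chrX:7557296-7605517, covers Foxp3 and 4 other annotated genes, among them Ccdc22 and Ppp1r3f. It stood at 13.5 to 17.8 FPKM in all 14 samples, and how much of that came from Foxp3 cannot be told apart from the neighbours.

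The IL-2 receptor alpha chain gene Il2ra (chr2:11642807-11693193, plus strand) was by far the most abundant of the 8. At day 3 the FPKM of WT cells was 355, 333, 333 and 299.8, and that of HDAC1cKO-HDAC2HET cells was 237, 229.7, 212 and 209. Every mutant sample was below every WT sample. The mean went from 330.3 ± 22.9 (SD, n = 4) to 222 ± 13.7 FPKM (SD, n = 4), a log2 fold change of -0.57 (SE 0.06, adjusted p = 1.68e-04), and the exact permutation test gave p = 0.0286, the smallest that 4 against 4 samples allow. The fall lay within the range of those of the 6 CD4 T cell markers. After restimulation it was 313, 267 and 235 FPKM in WT and 212, 199 and 198 FPKM in HDAC1cKO samples, again without overlap. There the log2 fold change was -0.41 (SE 0.12) with an adjusted p of 0.244.

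Il2rb, the beta chain that passes on the IL-2 signal together with the common gamma chain, moved the other way at day 3. It rose from 174 to 354 FPKM in HDAC1cKO-HDAC2HET cells (log2 fold change 1.03, SE 0.07, adjusted p = 1.12e-05). The ratio of Il2ra to Il2rb was 1.93, 1.82, 1.93 and 1.94 in WT and 0.670, 0.605, 0.614 and 0.618 in mutant samples. The alpha chain was thus above the beta chain per transcript length in all 4 WT samples and below it in all 4 mutant samples. After restimulation the ratio was 2.08, 2.09 and 2.00 in WT and 1.27, 1.52 and 1.52 in HDAC1cKO samples. This ratio was chosen after the values of both genes had been seen. Its exact permutation p was 0.0286 at day 3 and 0.1 after restimulation, the smallest possible. For a ratio chosen in that way these p-values carry little weight. Among 10 genes of IL-2 signalling, 8 were tested at day 3, of which 5 fell, 1 rose and 2 did not pass. Over all genes tested there, 51.8% passed. The cytokine gene Il2 fell from 63.0 to 15.8 FPKM (log2 fold change -2.02, SE 0.27), and Jak3, which encodes the kinase bound to the common gamma chain, fell from 91.2 to 36.6 FPKM (log2 fold change -1.31, SE 0.05). The remaining changes were under 2-fold. Il2rg and Socs1 were not tested. After restimulation 0 of these 8 genes passed in the limma fit and 1, Jak3, had an unadjusted p under 0.05. The shares of all genes tested there were 0.0921% and 14.2%. The fold changes of Il2 (difference -2.16, SE 0.43, adjusted p = 0.00617), Jak3 (-1.02, SE 0.11, adjusted p = 1.64e-04) and Il2rb (0.92, SE 0.15, adjusted p = 0.00177) differed between the experiments. That of Il2ra itself differed by -0.16 (95% interval -0.44 to 0.11, adjusted p = 0.429).

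**Figure D2:**
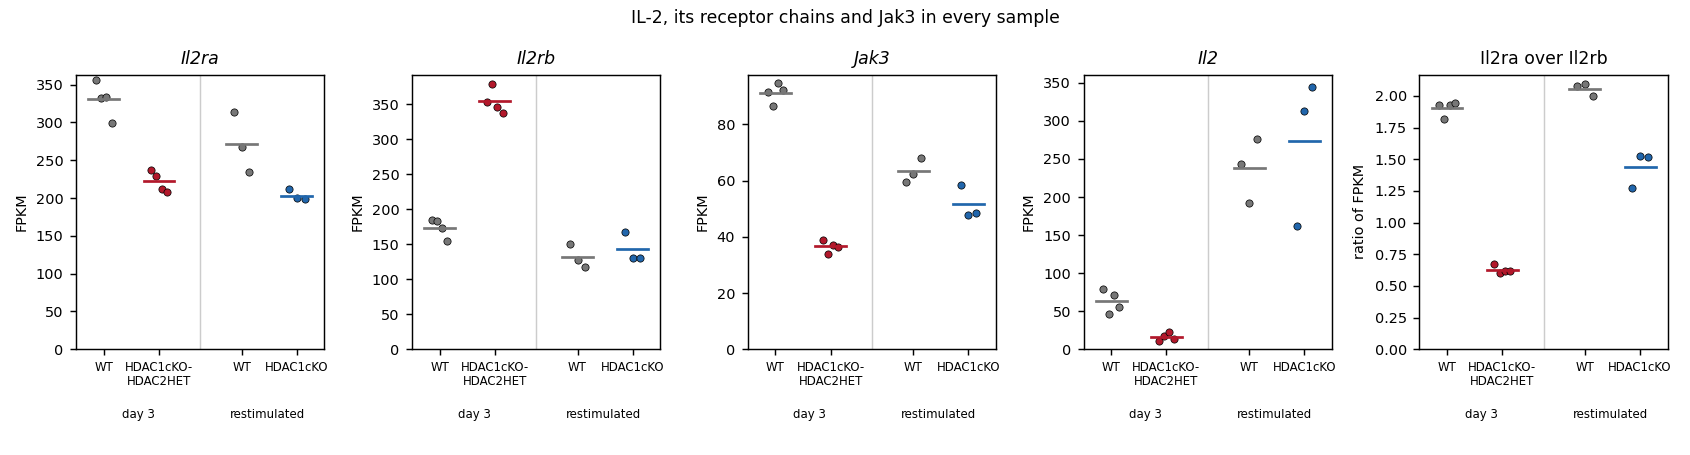
FPKM of Il2ra, Il2rb, Jak3 and Il2 and the ratio of Il2ra to Il2rb on linear axes from 0, with a point for each sample and a bar at the group mean. At day 3 the ratio is 1.82 to 1.94 in WT and 0.605 to 0.670 in HDAC1cKO-HDAC2HET samples.

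Nrp1, at chr8:128358604-128503363 on the plus strand, encodes a coreceptor for semaphorins and VEGF, and its protein is used to tell thymus-derived regulatory T cells apart in mice. It had the largest change among the 7 genes tested in both experiments. At day 3 the WT samples had 35.8, 15.7, 24.2 and 19.8 FPKM and the HDAC1cKO-HDAC2HET samples 2.82, 2.70, 3.80 and 3.73 FPKM. WT replicate 1 was the highest, and all mutant samples were below every WT sample. The assembled locus ended between chr8:128505473 and 128505535 in these WT samples and between 128503363 and 128505157 in the mutant samples. What part this had in the fall was not tested. The mean went from 23.9 ± 8.67 to 3.26 ± 0.583 FPKM (SD, n = 4 each), which is 13.7% of WT (log2 fold change -2.78, SE 0.25, adjusted p = 6.09e-05, exact permutation p = 0.0286). In the second experiment WT cells had 23.8, 20.1 and 9.99 FPKM and the HDAC1cKO samples 5.04, 5.27 and 6.03 FPKM. The groups did not overlap, with means of 17.9 ± 7.14 and 5.45 ± 0.517 FPKM (SD, n = 3 each), a log2 fold change of -1.61 (SE 0.32) and an adjusted p of 0.176. Without WT replicate 3, the lowest of its group, the log2 fold change was -1.99 with an adjusted p of 0.0161. The authors' confidence bounds for Nrp1 were wide. The lower bound was 0 in all 14 samples and the upper bound 43.7 to 145 FPKM, so single estimates are uncertain. Every upper bound, also in mutant samples, was above the highest WT estimate.

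Of 10 partners of neuropilins (among them plexins, ligands, an adaptor and the VEGF receptor gene Kdr), 6 could be tested at day 3. Of these 2 rose and 0 fell. Over all genes tested there, 51.8% passed. The plexin gene Plxna3 rose from 4.04 to 7.98 FPKM (log2 fold change 0.96, SE 0.08, adjusted p = 4.34e-05) and Plxna1 was the other. After restimulation 0 of 7 passed in the limma fit and 1, Plxna3, had an unadjusted p under 0.05. The shares of all genes tested there were 0.0921% and 14.2%. Plxna1 and Plxna3 were named after their values had been seen.

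Promoters are shown to let the base composition of genes that fell and of a gene that did not pass be compared. Of the 8 genes, 5 had an entry among the RefSeq promoters of GRCm38.p6, each 250 bases before and 50 after a transcript start. Ikzf2, Ikzf4 and Lrrc32 are named only. Those of 3 genes that fell and of Itgb8, which did not pass the test, are printed 5′ to 3′ on the strand of the gene, with matches to 6 short motifs in capitals.
Il2ra, chr2:11642542-11642841, plus strand: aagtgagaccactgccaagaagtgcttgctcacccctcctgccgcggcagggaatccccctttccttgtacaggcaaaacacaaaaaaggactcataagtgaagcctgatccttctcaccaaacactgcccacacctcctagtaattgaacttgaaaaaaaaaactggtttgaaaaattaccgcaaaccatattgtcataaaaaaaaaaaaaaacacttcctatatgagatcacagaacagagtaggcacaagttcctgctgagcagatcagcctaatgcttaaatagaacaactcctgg
Nrp1, chr8:128358823-128359122, plus strand: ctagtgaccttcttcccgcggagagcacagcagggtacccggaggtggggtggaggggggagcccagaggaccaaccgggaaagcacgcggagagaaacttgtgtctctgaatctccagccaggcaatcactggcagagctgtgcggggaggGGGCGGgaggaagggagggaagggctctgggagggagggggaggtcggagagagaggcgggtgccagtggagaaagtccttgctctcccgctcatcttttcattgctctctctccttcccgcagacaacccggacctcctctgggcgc
Gpr83, chr9:14859960-14860259, plus strand: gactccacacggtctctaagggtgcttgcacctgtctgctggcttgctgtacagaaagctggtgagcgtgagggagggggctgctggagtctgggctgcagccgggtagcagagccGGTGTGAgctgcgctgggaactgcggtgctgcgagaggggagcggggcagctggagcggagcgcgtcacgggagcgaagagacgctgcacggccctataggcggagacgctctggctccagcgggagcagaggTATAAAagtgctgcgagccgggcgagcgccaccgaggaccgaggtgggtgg
Itgb8, chr12:119238227-119238526, minus strand: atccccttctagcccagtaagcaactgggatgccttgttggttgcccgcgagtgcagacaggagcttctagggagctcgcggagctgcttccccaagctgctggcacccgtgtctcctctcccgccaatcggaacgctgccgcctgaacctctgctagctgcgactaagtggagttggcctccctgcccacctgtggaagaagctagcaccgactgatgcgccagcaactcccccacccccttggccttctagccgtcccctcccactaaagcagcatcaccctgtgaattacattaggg

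The motifs, searched on both strands, were TGTGGT for RUNX factors, TTCNNNGAA for STAT factors, GGTGTGA for T-box factors, GGGCGG for the GC box, TGANTCA for AP-1 and TATAAA for the TATA box, none of which overlapped another in these windows. They occurred in 16.8%, 8.30%, 3.98%, 35.7%, 7.81% and 13.6% of the 32851 promoters of that length. Nrp1 held a GC box, and Il2ra and Itgb8 held none of the 6. Gpr83 held a T-box match and TATAAA, the latter starting at position -1 and so lying across the transcript start. CpG dinucleotides numbered 3 in Il2ra, 14 in Nrp1, 24 in Gpr83 and 13 in Itgb8, beside a median of 7 over all promoters. The 3 promoters of genes that fell thus spanned a range from CpG-poor to CpG-rich.

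Ikzf2 (chr1:69531214-69687245, minus strand), which encodes Helios, was expressed at a low level. At day 3 the WT samples had 0.948, 0.670, 0.636 and 0.567 FPKM and the HDAC1cKO-HDAC2HET samples 0.308, 0.197, 0.140 and 0.207 FPKM. The groups did not overlap, and Ikzf2 fell to 30.2% of WT (log2 fold change -1.37, SE 0.21, adjusted p = 9.75e-04, exact permutation p = 0.0286). Restimulated WT cells had 1.60, 1.34 and 1.27 FPKM and the HDAC1cKO samples 0.551, 0.587 and 0.522 FPKM. All HDAC1cKO samples were below all WT samples there, at 39.4% of the WT mean, with a log2 fold change of -1.20 (SE 0.19) and an adjusted p of 0.135. The fold changes in the 2 experiments differed by -0.17 (95% interval -0.78 to 0.45, adjusted p = 0.743).

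Ikzf4 (chr10:128630843-128645991, minus strand), which encodes Eos, had 5.31, 4.61, 4.88 and 4.04 FPKM in the WT samples at day 3 and 3.67, 3.15, 2.55 and 2.72 FPKM in the HDAC1cKO-HDAC2HET samples. It fell to 64.2% of WT without overlap (log2 fold change -0.63, SE 0.13, adjusted p = 0.00447, exact permutation p = 0.0286). Restimulated WT cells had 6.71, 6.34 and 4.67 FPKM and the HDAC1cKO samples 5.37, 2.69 and 3.16 FPKM. HDAC1cKO replicate 1 lay within the WT range, and the log2 fold change of -0.69 (SE 0.29) had an adjusted p of 0.356.

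The other Ikaros family factors did not share a direction at day 3, where 51.8% of all genes tested passed. Ikzf1, which encodes Ikaros, fell from 106.8 to 89.6 FPKM (log2 fold change -0.25, SE 0.04) and Ikzf5 from 7.37 to 5.00 FPKM (-0.55, SE 0.06). Ikzf3, which encodes Aiolos, rose from 3.28 to 8.52 FPKM (1.40, SE 0.26, adjusted p = 0.00265). After restimulation Ikzf3 had means of 1.85 FPKM in WT and 4.42 FPKM in HDAC1cKO cells (log2 fold change 1.21, SE 0.28, adjusted p = 0.201). There 0 of the 3 passed in the limma fit, with 2 at an unadjusted p under 0.05. The shares of all genes tested in that experiment were 0.0921% and 14.2%. Ikzf1 and Ikzf5 were named after their values had been seen.

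Lrrc32 (chr7:98489283-98502181, plus strand) encodes GARP, which tethers latent TGF-beta to the cell surface. The WT cells of day 3 had 8.41, 6.17, 11.4 and 6.12 FPKM and the HDAC1cKO-HDAC2HET samples 6.71, 5.99, 3.40 and 4.38 FPKM. Of the 4 mutant samples, 3 lay below every WT sample and 1 did not. The log2 fold change of -0.64 (SE 0.27) had an adjusted p of 0.0862 and an exact permutation p of 0.114. After restimulation the WT samples had 1.11, 1.35 and 0.752 FPKM and the HDAC1cKO samples 0.592, 0.385 and 0.453 FPKM. The groups did not overlap, and the log2 fold change was -1.01 (SE 0.29) with an adjusted p of 0.242. The assembled locus was chr7:98489697-98502181 in the first experiment and chr7:98494222-98501831 in the second, so levels of Lrrc32 are not comparable between them.

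Itgb8 (chr12:119158022-119238802, minus strand) encodes the integrin beta8 chain, which pairs with alphav to release active TGF-beta. It was close to the lowest level tested. WT samples of day 3 had 0.224, 0.106, 0.170 and 0.180 FPKM and the HDAC1cKO-HDAC2HET samples 0.181, 0.125, 0.133 and 0.192 FPKM, which overlapped throughout. The log2 fold change was -0.06 with a 95% interval from -0.51 to 0.39 (adjusted p = 0.824). In the second experiment the values were 1.71, 0.406 and 0.221 FPKM in WT and 0.369, 0.196 and 0.217 FPKM in HDAC1cKO cells. WT replicate 1 set the mean of its group. The log2 fold change was -0.91 (SE 0.67, adjusted p = 0.577) with that sample and -0.19 without it.

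Of 14 other genes of TGF-beta activation and signalling, all were tested at day 3, of which 3 rose, 5 fell and 6 did not pass. None changed 2-fold, and 51.8% of all genes tested passed in that comparison. Itgav, the partner chain of Itgb8, rose from 5.37 to 7.24 FPKM (log2 fold change 0.42, SE 0.07, adjusted p = 0.00107), but did not pass in the fit over all 14 samples (adjusted p = 0.0824). Tgfbr1, a signalling chain of the TGF-beta receptor, fell from 6.47 to 3.44 FPKM (log2 fold change -0.90, SE 0.09, adjusted p = 9.17e-05). Their median log2 fold change was -0.10. After restimulation 0 of the 14 passed in the limma fit and 2 had an unadjusted p under 0.05. The shares of all genes tested there were 0.0921% and 14.2%. Itgav and Tgfbr1 were named after their values had been seen.

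Gpr83 (chr9:14860210-14870789, plus strand) encodes a G protein-coupled receptor enriched in regulatory T cells. At day 3 the WT samples had 6.05, 7.47, 6.38 and 5.94 FPKM and the HDAC1cKO-HDAC2HET samples 2.85, 3.17, 2.27 and 2.81 FPKM. Gpr83 fell to 42.9% of WT without overlap (log2 fold change -1.19, SE 0.12, adjusted p = 8.57e-05, exact permutation p = 0.0286). After restimulation WT cells had 1.34, 3.25 and 2.52 FPKM and the HDAC1cKO samples 4.07, 2.34 and 2.78 FPKM, which overlapped. The log2 fold change was 0.40 there (SE 0.37, adjusted p = 0.638). Gpr83 was the only member of the 7 whose fold change differed between the experiments, by -1.60 (SE 0.36, adjusted p = 0.0119), where 15.6% of 12419 genes differed. The fold change after restimulation was -0.12 once Xist status was a covariate, and the difference was then -1.07 with an adjusted p of 0.117. It was also not significant, at an adjusted p of 0.0661, with the replicate number as a block, although whether these numbers pair the samples is not known.

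For Nrp1 the difference between the experiments was -1.17 (SE 0.43, adjusted p = 0.0870), and it passed without WT replicate 1 of the second experiment (-1.42, adjusted p = 0.0415). For Ikzf4, Lrrc32 and Itgb8 the differences were 0.06, 0.37 and 0.85, with adjusted p-values of 0.926, 0.587 and 0.419. The experiments differed in both genotype and culture, which cannot be told apart.

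**Figure D3:**
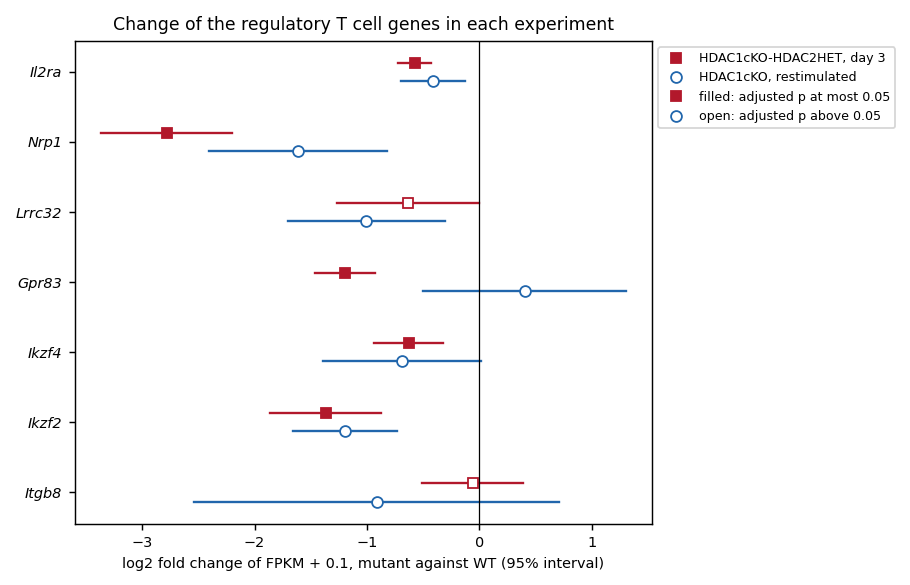
Log2 fold change of FPKM + 0.1, mutant against WT, with its 95% interval for each measured regulatory T cell gene, for HDAC1cKO-HDAC2HET at day 3 (squares) and HDAC1cKO after restimulation (circles), filled where the adjusted p was at most 0.05. Of 7 day 3 squares, 5 are filled and all lie below 0, and Gpr83 lies at -1.19 at day 3 and at 0.40 after restimulation.

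Of 20 regulators and partners of FOXP3, 11 fell, 2 rose and 7 did not pass at day 3, where 51.8% of all genes passed. Their median log2 fold change was -0.37. Runx1, a partner of FOXP3, fell from 10.9 to 5.90 FPKM (log2 fold change -0.88, SE 0.10, adjusted p = 1.87e-04, named after its values had been seen). Tet2, which encodes a DNA demethylating enzyme, fell from 7.08 to 3.37 FPKM (log2 fold change -1.04, SE 0.14), and Satb1, which encodes a chromatin organiser, rose from 61.3 to 145.7 FPKM (1.24, SE 0.08). After restimulation 0 of the 20 passed in the limma fit and 6 had an unadjusted p under 0.05. The shares of all genes tested there were 0.0921% and 14.2%.

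Of 24 other surface and effector genes of regulatory T cells, 21 were tested at day 3, of which 9 rose, 8 fell and 4 did not pass. Over all genes tested there, 51.8% passed. Nt5e, which encodes the ectoenzyme CD73, fell from 7.95 to 0.249 FPKM (log2 fold change -4.52, SE 0.12). Izumo1r, which encodes folate receptor 4, fell from 221 to 52.6 FPKM (-2.07, SE 0.09). Prdm1, the gene of the transcription factor Blimp-1, rose from 0.108 to 2.95 FPKM (3.84, SE 0.21). The checkpoint receptor gene Tigit rose from 21.4 to 88.6 FPKM (2.10, SE 0.21) and Penk, the gene of the opioid precursor proenkephalin, from 18.0 to 55.2 FPKM (1.72, SE 0.36). After restimulation Ctla4, which encodes the inhibitory receptor CTLA-4, was the only gene of 21 tested to pass when the experiment was fitted alone. In that fit 0.0921% of all genes tested passed. The WT samples had 128.7, 109.2 and 98.2 FPKM and the HDAC1cKO samples 47.2, 45.3 and 47.0 FPKM (log2 fold change -1.26, SE 0.11, adjusted p = 0.0335). Nt5e had means of 9.84 FPKM in WT and 2.36 FPKM in HDAC1cKO cells (log2 fold change -2.05, adjusted p = 0.122), and it passed in the fit over all 14 samples (adjusted p = 6.57e-04). For Ctla4, without WT replicate 2 or any of the 3 HDAC1cKO samples the adjusted p was 0.0880 to 0.138. At day 3 Ctla4 fell from 128.7 to 92.2 FPKM (log2 fold change -0.49, SE 0.12, adjusted p = 0.00867). The 2 fold changes differed by 0.77 (SE 0.17, adjusted p = 0.0107), where 15.6% of 12419 genes differed. The assembled locus began at chr1:60909025 in the first experiment and at chr1:60887000 in the second, so levels of Ctla4 are not comparable between them. Genotype and culture also differed together.

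**Figure D4:**
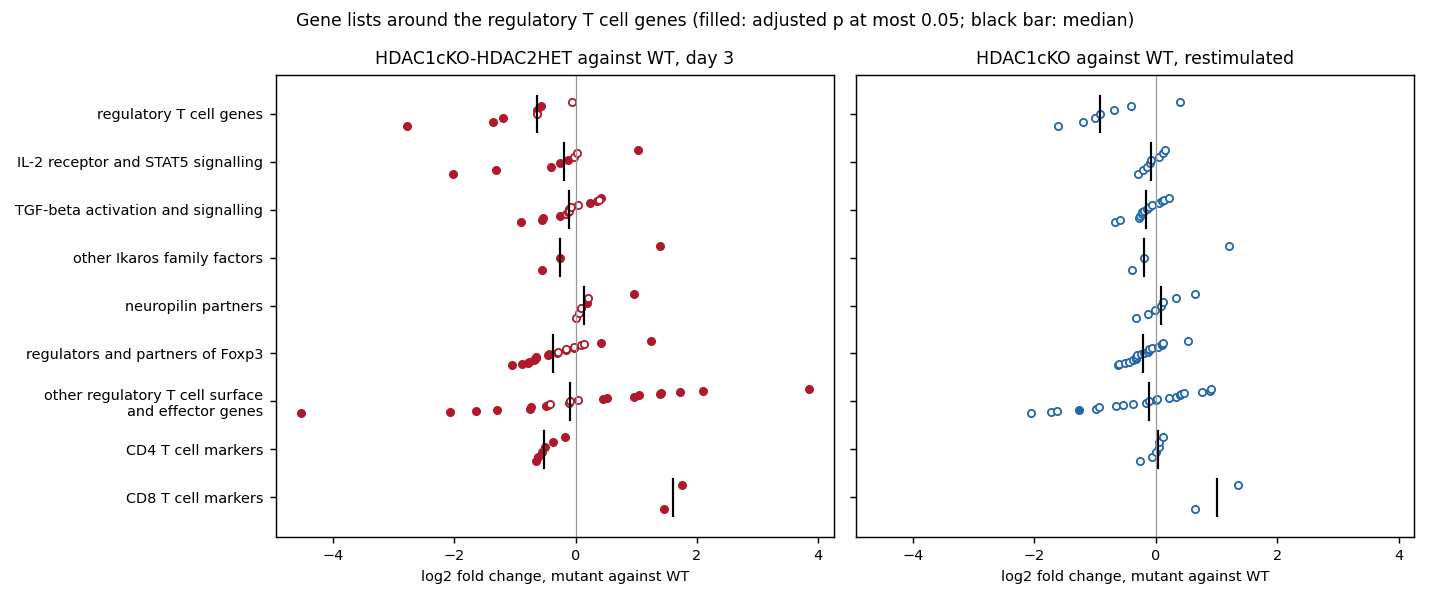
Log2 fold change of each tested gene of 9 lists, a row for each list with a black bar at its median, for HDAC1cKO-HDAC2HET against WT at day 3 (left) and HDAC1cKO against WT after restimulation (right), filled where the adjusted p was at most 0.05. The 7 regulatory T cell genes have medians of -0.64 and -0.91 (-0.59 without WT replicate 1 of the second experiment), while other surface and effector genes of regulatory T cells spread to both sides of 0.

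The order of the levels, compared per transcript length in FPKM, changed at day 3. In WT cells it ran from Il2ra over Nrp1, Lrrc32, Gpr83, Ikzf4 and Ikzf2 to Itgb8, and only Lrrc32 and Gpr83 overlapped as neighbours. In HDAC1cKO-HDAC2HET cells Nrp1 no longer came next to Il2ra, and the values of Lrrc32, Nrp1, Ikzf4 and Gpr83 overlapped from neighbour to neighbour at means of 5.12, 3.26, 3.02 and 2.77 FPKM. After restimulation the order was Il2ra, Nrp1, Ikzf4, Gpr83, Ikzf2, Lrrc32 and Itgb8 in both genotypes. Nrp1 and Ikzf4 did not overlap in WT and did in HDAC1cKO cells, and from Gpr83 down to Itgb8 each WT range overlapped the next.

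The 4 genes with a mean of at least 1 FPKM in both experiments were also compared with 8754 protein-coding genes over the 14 samples, after each experiment was centred on its mean. Nsmce3 (r = 0.992) and Marcks (r = 0.981) were most like Nrp1. Cdc40 (r = 0.976) and Resf1 (r = 0.972) were most like Il2ra, Vim (r = 0.952) and Cdk19 (r = 0.942) most like Ikzf4, and Cd4 (r = 0.949) and Casp9 (r = 0.942) most like Gpr83. Among themselves, Nrp1 and Il2ra had r = 0.941 and Gpr83 and Nrp1 r = 0.521. These Pearson coefficients describe samples that share libraries and fall into genotype groups, which the centring kept.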

How the data were processed

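RNA-Seq libraries of polyadenylated RNA were stranded and read from a single end. According to the study's methods, reads were mapped to mm10 with TopHat and assembled with Cufflinks, which made the deposited FPKM values and confidence bounds per library. The labels' processing notes also list STAR 2.5.2b and Subread 1.5.1, and the deposited files used here hold no counts.

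Genes were taken by name or, where a file had no named entry, from the assembled locus sharing at least 0.8 of the joint span with the gene in GENCODE M21, its transcripts or the locus named in the same experiment. Il2ra, Ikzf4 and Nrp1 were matched by position in all 14 samples, and the other tested members in part. Matched loci at 0 were left out. Overlapping genes share reads.

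Fits were made for each experiment separately, on log2(FPKM + 0.1), with limma 3.58.1 and R 4.3.3. The variance prior followed the mean level. P-values were adjusted by Benjamini-Hochberg over all genes whose mean FPKM reached 0.1. A call needed an adjusted p of at most 0.05. Fold changes on this scale are understated for low genes. The difference used all 14 samples and 4 group means. Exact permutation tests were 2-sided, on the means of 7 genes and of the ratio of Il2ra to Il2rb in each experiment. Their p-values are unadjusted. The code was tested on simulated data. Alternatives changed the pseudocount, filter, scaling, trend, weights, replicate block, locus overlap, Xist covariate, shared fit and each sample in turn. Members and gene lists were chosen with earlier results of these data known. Named from each list were at most the 5 genes with the largest change among those called at 2-fold, unless stated. Tables were made with pandas 2.3.3 and figures with matplotlib 3.10.9.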

Additional observations from a re-analysis of the deposited data

Results flagged for a closer look

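Foxp3 in the first experiment had a WT sample far from the others, at 1.48 FPKM in replicate 1 where the other 3 were listed at 0, which can be failed estimates. That library also gave the highest WT value at day 3 of Il2ra, Nrp1, Ikzf4, Ikzf2 and Itgb8, though not of Lrrc32 and Gpr83. It was the deepest WT library of that experiment, with an estimated 56300000 fragments. What part this had in the values was not tested. Ikzf3 in HDAC1cKO-HDAC2HET samples had a lowest value of 6.21 FPKM, in replicate 3, apart from 9.01, 9.28 and 9.57 FPKM in the others. That replicate also had the lowest estimated depth, 24900000 fragments, and its part in the value was not tested. These were 2 of 61 groups of 4 samples examined, and chance alone sets apart about 1 in 20 such groups.

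The fold change of Gpr83 differed between the experiments by -1.60 (SE 0.36, adjusted p = 0.0119). So did those of Il2 (-2.16, adjusted p = 0.00617), Jak3 (-1.02, adjusted p = 1.64e-04) and Il2rb (0.92, adjusted p = 0.00177). Genotype and culture changed together between the experiments and cannot be told apart.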

How the results depend on the processing

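In the HDAC1cKO-HDAC2HET experiment, 5 members passed under all alternatives, except that a minimum mean of 1 FPKM left 5 to test, of which 4 passed, but with a pseudocount of 1 only 1, Nrp1, fell 2-fold, and leaving out a sample gave 5 members and 3 at 2-fold each time. In the HDAC1cKO experiment a fit over all 14 samples, which shares the spread, called 3 members (Il2ra, Ikzf2 and Nrp1), of which 2 were at 2-fold, while 10.4% of all genes were called there, and leaving out a sample gave 0 to 1, both with and without the 2-fold limit. The number of members that differed between the experiments was 0 with a replicate block and 0 with Xist status as a covariate, and 1 to 2 without a sample. After centring on group means, same-numbered samples had correlations of -0.013 to 0.043, which do not show whether they were paired. The replicate block changed no other call among the members. No member had a named entry in every sample of an experiment, so the fit on named genes gave no value for them. Ctla4 after restimulation lost its call in 8 of 17 alternatives, and Hdac1 after restimulation had an adjusted p of 0.0521 with no filter. In the fit over all 14 samples, Nt5e, Tgfbr1, Ikzf5, Cd8a, Ikzf3, Jak3 and Plxna3 also passed after restimulation (adjusted p = 6.57e-04 to 0.0426), and Itgav at day 3 did not (adjusted p = 0.0824). The members' median after restimulation ranged from -1.22 to -0.59 over samples left out and was -0.48 with a pseudocount of 1.

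Signs turned only in values that did not pass. At day 3 Itgb8 ranged from -0.18 to 0.035 over samples left out. After restimulation Gpr83 was -0.12 with Xist status as a covariate. Over samples left out, Il2 ranged from -0.058 to 0.48, Il2rb from -0.0051 to 0.21 and Itgav from -0.068 to 0.43 on the log2 scale. With a pseudocount of 1 the difference between the experiments was 0.14 for Ikzf2 and -0.073 for Lrrc32. For Ikzf4 that difference ranged from -0.14 to 0.35 over samples left out. The causes were not tested. Low levels of Ikzf2 and Itgb8 and the wide bounds of Nrp1 limit the precision.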
